A study of Mus musculus with 6 samples.

Results

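Cytosolic ribosomal protein genes are described here across embryoid bodies, the floating aggregates in which mouse embryonic stem cells were turned towards motor neurons. The genes were taken by symbol: names of the form Rps or Rpl followed by a digit, and Rplp0, Rplp1 and Rplp2, without the rows named as pseudogenes and without the Rps6k kinases. That gave 85 of the 31053 genes in the count tables, and each was seen in at least 5 of the 6 libraries (all 85 in 5 of them, and 84 in DeltaSP 1). Values count UMIs, unique molecular identifiers, each standing for 1 captured RNA molecule. Of the 85 genes, 52 encode or resemble large-subunit proteins and 32 small-subunit proteins, and the last, Rps19bp1, encodes a binding partner of Rps19 that the symbol rule also takes in. Fau, Rpsa and Rack1 encode ribosomal proteins under other names and are given apart.

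Single-cell RNA sequencing with a 10x 3' kit was done at day 6 of the differentiation in 6 libraries, 2 from KO clones (genotype lncMN2-/-), 2 from DeltaSP clones (lncMN2_SP-/-) and 2 from WT clones. KO and DeltaSP are CRISPR/Cas9 edits of the long noncoding RNA locus lncMN2, described by the submitters as loss-of-function, and all 3 genotypes share the HB9::GFP stem cell background, which carries a green fluorescent reporter driven by the motor neuron promoter HB9. The question is which transcripts differ when the locus is edited. In 16225 kept cells, 5330434G04Rik, taken as the transcript of the targeted locus from knowledge of the study and not from the labels, had 4 and 6 UMIs in the KO libraries, 841 and 1066 in the DeltaSP libraries and 661 and 907 in the WT libraries. These are raw counts, and the DeltaSP libraries held 35965573 and 47927845 kept UMIs against 20318500 and 27061174 in WT. Relative to those totals, both DeltaSP libraries lay below both WT libraries. Kept libraries ran from 20318500 UMIs in WT 1 to 47927845 in DeltaSP 2, and WT 1 was the shallowest per cell, with a median of 4157 UMIs against medians up to 15112 elsewhere. Between any pair of libraries, 3 to 11 barcodes were shared. With a single clone behind each library, a p-value rests on how far the 2 clones of a genotype differ, and clone and library preparation cannot be told apart.

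Cytosolic ribosomes hold a small subunit, which reads the messenger RNA, and a large subunit, which joins amino acids, and each protein is normally needed in 1 copy per ribosome, the stalk proteins being the exception. Their messenger RNAs are short and abundant, and most begin with a run of pyrimidines, the 5' terminal oligopyrimidine tract, through which growth signals control their translation. Dividing cells, neural progenitors among them, make many ribosomes, and ribosome production falls as neurons leave the cell cycle.

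The start sites of 5 genes, chosen after their sequences were seen, show windows with and without a long run of pyrimidines, with the longest run of C and T in capitals. They cover 15 bases on either side of the RefSeq gene start (GRCm38.p6), read along the gene's strand: chr14:18270972-18271001 on the minus strand for Rpl15, chr11:114668565-114668594 on the plus strand for Rpl38, chr3:90213634-90213663 on the minus strand for Rps27, chr9:64173372-64173401 on the plus strand for Rpl4 and chr10:128549154-128549183 on the minus strand for Rpl41. Rpl15, Rpl38 and Rps27 hold a long run across the gene start, while the run of Rpl4 ends before it, outside the annotated transcript. Rpl41 holds no long run within this window. In the GENCODE M21 annotation, Rpl41 and Rpl15 begin outside their windows, at positions 128549305 and 18271391. Their windows therefore rest on the RefSeq starts alone.
Rpl15: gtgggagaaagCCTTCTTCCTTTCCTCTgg
Rpl38: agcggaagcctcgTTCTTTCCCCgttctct
Rps27: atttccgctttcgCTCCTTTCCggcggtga
Rpl4: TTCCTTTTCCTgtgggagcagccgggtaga
Rpl41: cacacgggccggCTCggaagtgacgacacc
RefSeq gave start windows for 65 of the 85 genes, 77 windows in all. The letters CTTTCC, on the gene's strand within these 30 bases, were in 11 of the 77, or 14.3%, against 1.42% of the 32851 windows of all genes. An unbroken run of at least 6 pyrimidines was in 40 of the 77, or 51.9%, against 29.2% of all windows. Both counts take a match anywhere in the 30 bases, before or after the start, so they do not show that the RNA begins with it. Over the 300 bases from 250 before to 50 after the start, and on either strand, CCGGAAG was in 33.8% of the ribosomal protein windows and 8.86% of all windows, and TATAAA in 9.09% and 13.6%. A match is a description of the letters and not of binding.

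The coding sequences of short genes were printed because length ordered the differences between genotypes described below. Rpl41 encodes the shortest protein of the set, 25 residues, and lies at chr10:128548114-128549305 on the minus strand. Sequences follow GENCODE M21 (GRCm38) from the start codon, in capitals, up to the stop codon, which is left out.
Rpl41: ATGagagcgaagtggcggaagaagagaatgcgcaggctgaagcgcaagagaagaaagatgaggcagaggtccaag
Rps27, at chr3:90212522-90213651 on the minus strand, and Rps27l, at chr9:66946086-66949516 on the plus strand, encode paralogous small-subunit proteins of 84 residues. Capitals mark the start codon in Rps27 and, in Rps27l, the 60 of 252 bases that differ from Rps27 and change 3 residues.
Rps27: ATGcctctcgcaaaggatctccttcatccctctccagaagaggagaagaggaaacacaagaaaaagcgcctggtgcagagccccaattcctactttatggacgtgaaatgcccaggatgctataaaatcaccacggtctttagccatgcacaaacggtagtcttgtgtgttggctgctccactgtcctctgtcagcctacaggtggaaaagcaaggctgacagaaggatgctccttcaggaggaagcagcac
Rps27l: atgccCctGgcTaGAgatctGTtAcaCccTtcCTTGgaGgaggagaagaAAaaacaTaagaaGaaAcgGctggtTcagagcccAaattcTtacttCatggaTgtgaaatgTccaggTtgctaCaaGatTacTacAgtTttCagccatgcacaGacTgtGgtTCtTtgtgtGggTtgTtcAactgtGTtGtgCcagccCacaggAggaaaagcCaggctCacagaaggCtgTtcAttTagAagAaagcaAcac
Rps27rt, at chr9:114982366-114982739 on the minus strand, has the same coding sequence as Rps27, with 0 differing bases, and the last 150 bases of both transcripts were 97.4% identical. Reads of this pair cannot be told apart where the sequences are the same, so the values of both are uncertain, those of the low Rps27rt above all.

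Ribosomal protein transcripts made up a smaller share of the UMIs in both KO libraries than in any other library. The 85 genes took 11.9% and 10.7% of UMIs in the KO libraries, 12.5% and 17.4% in the DeltaSP libraries and 18.4% and 15.8% in the WT libraries. The KO and WT values did not overlap, and the DeltaSP libraries stood apart from each other, 1 close to KO and 1 within the WT range. Means were 11.3% ± 0.832 in KO, 14.9% ± 3.44 in DeltaSP and 17.1% ± 1.89 in WT (SD, n = 2 each). A share is relative, so fewer ribosomal protein transcripts and more of other RNA cannot be told apart, and over all cells the mix of cell types enters too. UMIs of mitochondrially encoded genes took 4.01% ± 0.240 in KO, 3.96% ± 0.955 in DeltaSP and 4.45% ± 0.770 in WT, and leaving them out of the total kept the order of the genotypes. Barcodes left out by the cell filter gave 10.7% and 11.2% in KO, 12.8% and 18.9% in DeltaSP and 18.1% and 15.7% in WT, values near those of the kept cells of the same library. Small-subunit transcripts took 4.65% and 4.08% in KO, 4.98% and 7.12% in DeltaSP and 7.82% and 6.51% in WT. Large-subunit transcripts took 7.22% and 6.62% in KO, 7.52% and 10.2% in DeltaSP and 10.6% and 9.24% in WT, with the same order of libraries within each subunit.

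**Figure D1:**
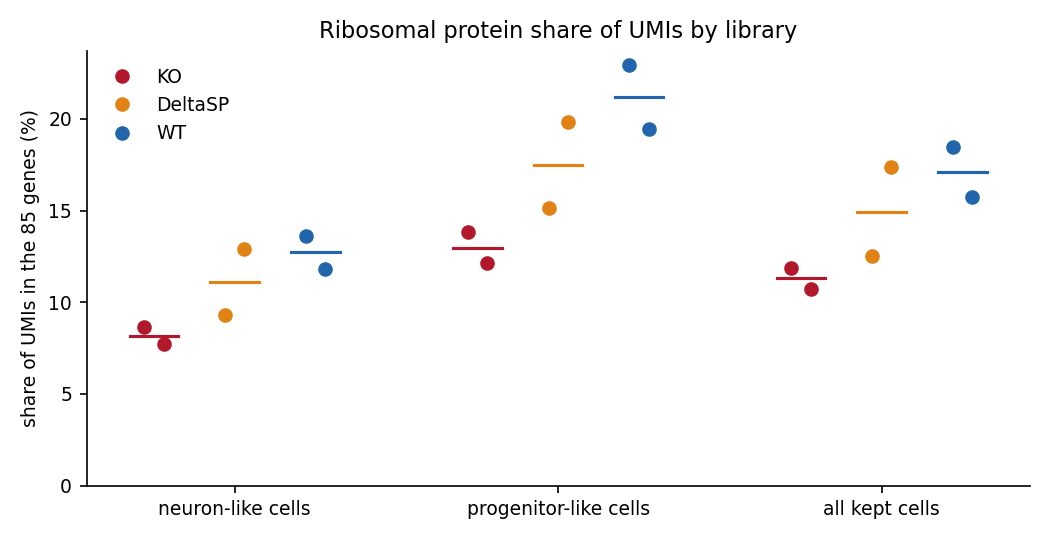
Share of UMIs in the 85 ribosomal protein genes (percent, y axis) in neuron-like, progenitor-like and all kept cells; each point is 1 library and each line a genotype mean (n = 2). KO libraries lie at 10.7% to 11.9% over all cells, below both WT libraries at 15.8% and 18.4%, and the DeltaSP points lie apart at 12.5% and 17.4%.

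In KO against WT over all kept cells, 29 of 83 tested ribosomal protein genes were lower and 0 were higher (edgeR quasi-likelihood test, Benjamini-Hochberg adjusted p under 0.05 over 14900 genes). Of all genes tested, 7.52% passed in either direction, 4.71% as lower and 2.81% as higher. The median log2 fold change was -1.06 over the ribosomal protein genes and 0.00 over all genes. At an unadjusted p under 0.05 in edgeR, 53 were lower and 1 was higher. Unadjusted counts, here and below, come without the share of all genes at that cut, so they are not read as an excess. With DESeq2 53 were lower and Rpl4 was higher, where 2382 of all genes passed. The adjusted p-values of the 29 ran from 0.0262 to 0.0496, so each lay close to the threshold. The count was 0 without KO 1, 0 without KO 2, 1 without WT 1 (Rps27rt) and 46 without WT 2, while the median stayed between -1.24 and -0.84. The calls over all genes moved as well, to 33, 4, 15 and 3207 in the same 4 fits, against 1121 with all libraries. Both KO libraries lay below both WT libraries for 59 genes and above them for 5, where 29.3% of all tested genes were separated downwards and 30.1% upwards. Rpl10l and Rpl3l, with 25 and 30 UMIs in all libraries together, were too low to test.

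Taking the stalk of the large subunit first, Rplp1 and Rplp2 were lower in KO and Rplp0 did not pass. Rplp1, a stalk protein that draws translation factors to the large subunit, had 740.3 and 551 normalised CPM (UMIs scaled by TMM to the size of each library) in KO, 1167 and 2350.1 in DeltaSP and 5088 and 2950.3 in WT. All 3 genotypes were separated, KO lowest, and the log2 fold change of KO over WT was -2.64 ± 0.42 (SE, adjusted p = 0.0278, edgeR). Its partner Rplp2 had 708 and 609 CPM in KO, 797 and 1665 in DeltaSP and 2300.0 and 1927 in WT, again without overlap, with a log2 fold change of -1.68 ± 0.35 (edgeR adjusted p = 0.0383). Rplp0, which anchors both to the ribosome and has a coding sequence of 951 bases against 342 and 345, had 4245 and 4459 CPM in KO, 3794 and 4507 in DeltaSP and 4613 and 3771 in WT. These values overlapped in every pair of genotypes, and the log2 fold change was 0.05 ± 0.24 (edgeR adjusted p = 0.897). Rplp2 and Rplp0 were singled out after their values were seen, to set the 3 stalk genes side by side.

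Short small-subunit genes held the next lowest fold changes. Rps29, a zinc-binding protein of the subunit's head, had 538 and 471 CPM in KO, 802 and 1880.4 in DeltaSP and 2960.0 and 3151 in WT, so that DeltaSP lay between the others in both libraries. Its log2 fold change of KO over WT was -2.60 ± 0.39 (edgeR adjusted p = 0.0262). Rps28 had 545 and 494 CPM in KO, 725 and 1911 in DeltaSP and 2181 and 2947 in WT, with the same separation (log2 fold change -2.30 ± 0.44, edgeR adjusted p = 0.0335). Rps27, also zinc-binding, had 455 and 446 CPM in KO, 559.7 and 1321 in DeltaSP and 2145 and 2091 in WT. The WT libraries were close together and far above both KO libraries (log2 fold change -2.23 ± 0.38, edgeR adjusted p = 0.0294). Its near copy Rps27rt had 2.46 and 1.90 CPM in KO, 5.18 and 5.26 in DeltaSP and 38.3 and 12.2 in WT, on 79 and 67 UMIs in KO against 677 and 319 in WT. It had the lowest fold change of the set (-3.53 ± 0.52, edgeR adjusted p = 0.0262), with the doubt on its reads given above. Rps21 had 771 and 760.3 CPM in KO, 975 and 2459 in DeltaSP and 2711 and 3200.2 in WT, the WT libraries lying above the rest (log2 fold change -1.95 ± 0.41, edgeR adjusted p = 0.0399).

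Of the large subunit, the genes with the lowest fold changes beside Rplp1 were Rpl37a, Rpl39, Rpl41 and Rpl37. Rpl39, which lines the tunnel through which the new chain leaves, had 646 and 654 CPM in KO, 747 and 1734 in DeltaSP and 2573 and 2677 in WT. The KO libraries agreed closely with each other, DeltaSP 1 lay near them, and both WT libraries lay well above (log2 fold change -2.01 ± 0.37, edgeR adjusted p = 0.0325). Rpl41, the shortest protein of the set, had 1263 and 1223 CPM in KO, 1734 and 3549.7 in DeltaSP and 4831 and 4267 in WT. Again no pair of genotypes overlapped (log2 fold change -1.87 ± 0.35, edgeR adjusted p = 0.0325). The zinc-finger protein gene Rpl37a had 573 and 550.3 CPM in KO, 719 and 1574 in DeltaSP and 2914 and 2076 in WT (log2 fold change -2.15 ± 0.38, edgeR adjusted p = 0.0314). Rpl37, of the same fold class, had 745 and 771 CPM in KO, 937 and 2316 in DeltaSP and 2584 and 2884 in WT (log2 fold change -1.85 ± 0.40, edgeR adjusted p = 0.0402). Both showed KO lowest, DeltaSP between and WT highest, without overlap.

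At the other end of the 29 stood Rps15, Rps13, Rps27l, Rps19 and Rpl22. Rps19, the gene most often mutated in Diamond-Blackfan anaemia in humans, had 1142 and 965 CPM in KO, 1426 and 2420.2 in DeltaSP and 3079 and 2375 in WT. DeltaSP 2 lay within the WT range here, and KO lay below both other genotypes (log2 fold change of KO over WT -1.37 ± 0.30, edgeR adjusted p = 0.0429). Rps15, whose tail reaches the decoding site, had 627 and 583 CPM in KO, 797 and 1414 in DeltaSP and 1916 and 1327 in WT (log2 fold change -1.42, edgeR adjusted p = 0.0436). Rps13 had 1180.0 and 898 CPM in KO, 1456 and 2376 in DeltaSP and 3425 and 2128 in WT (log2 fold change -1.42, edgeR adjusted p = 0.0496). In both genes DeltaSP 2 fell between the WT libraries, and KO stood below all others. Rps27l had 341 and 250 CPM in KO, 355 and 597 in DeltaSP and 946 and 620 in WT, with no overlap of KO and WT (log2 fold change -1.41, edgeR adjusted p = 0.0462). Rpl22, an RNA-binding protein of the large subunit, had 669 and 623 CPM in KO, 707 and 1230.0 in DeltaSP and 1537 and 1349 in WT (log2 fold change -1.16, edgeR adjusted p = 0.0496). Its log2 fold change was 0.031, of the opposite sign, with the trend in transcript length removed. Of the 15 genes named by fold change, Rps27rt, Rplp1 and Rpl37a still passed with that trend removed and the others did not.

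**Figure D2:**
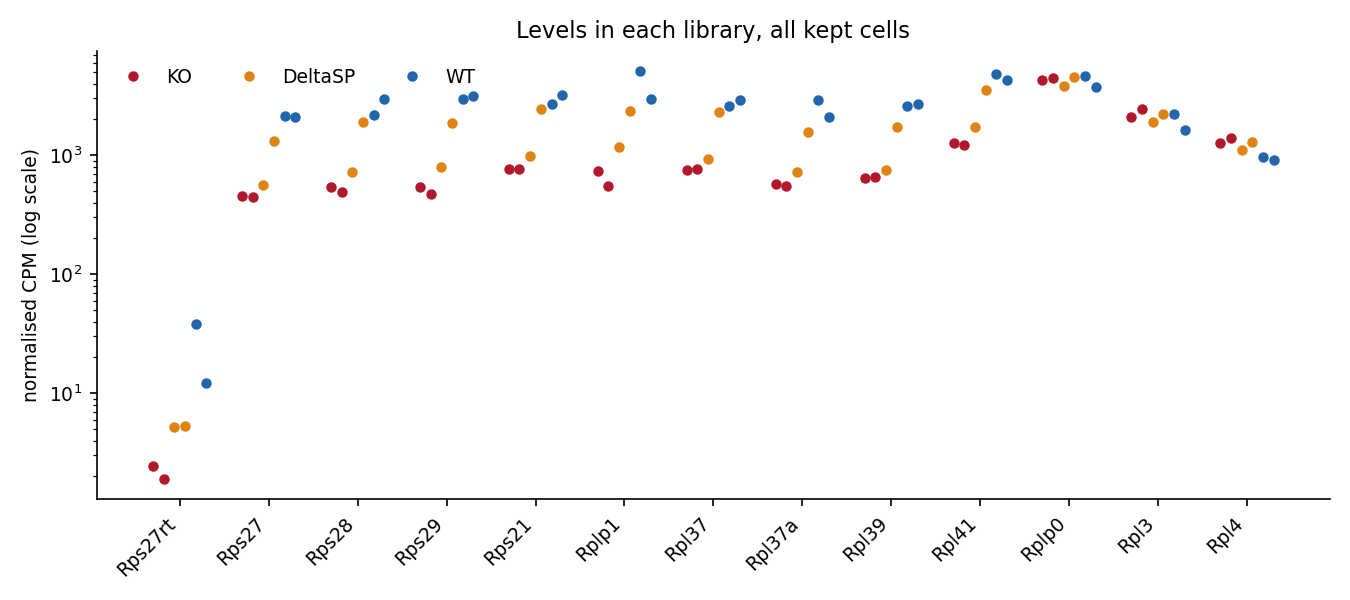
Levels of 13 ribosomal protein genes in each library (normalised CPM, log scale) over all kept cells, with KO, DeltaSP and WT libraries from left to right within each gene. The 10 genes on the left, those with the lowest fold changes, have both KO libraries below both WT libraries (Rps29, 538 and 471 in KO against 2960.0 and 3151 in WT); Rplp0, Rpl3 and Rpl4 on the right do not.

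Length of the coding sequence ordered the difference between KO and WT. The 28 shortest genes, of 75 to 390 coding bases, had a median log2 fold change of -1.63, and 23 of them were lower. The 27 of middle length, 396 to 534 bases, had a median of -1.10 and 6 lower, and the 28 longest, 552 to 1257 bases, had a median of -0.07 and 0 lower, or higher. As summed levels, the shortest genes took 2.01% and 1.93% of UMIs in KO, 2.38% and 4.59% in DeltaSP and 5.47% and 5.53% in WT. The longest took 6.24% and 5.85% in KO, 5.996% and 6.83% in DeltaSP and 6.28% and 5.12% in WT, with all 3 genotypes overlapping. Across the 83 genes, Spearman's rho between log2 fold change and coding length was 0.84, as a description: the points share the same 4 libraries, and genes are not replicates. No gene with a coding sequence over 456 bases passed.

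Among the 28 longest genes, 0 passed by edgeR in either direction. Rpl3, at the peptidyl transferase centre, had 2097 and 2451 CPM in KO, 1907 and 2200.3 in DeltaSP and 2233 and 1614 in WT, with overlapping genotypes (log2 fold change of KO over WT 0.24 ± 0.24, edgeR adjusted p = 0.535). Rpl4, the longest, had 1278 and 1408 CPM in KO, 1097 and 1286 in DeltaSP and 963 and 905 in WT. KO lay above WT without overlap, yet the test was not passed (0.52 ± 0.19, edgeR adjusted p = 0.120). Rpl7a, Rps2, Rps3a1 and Rpl7l1 also had both KO libraries above both WT libraries, at log2 fold changes of 0.34, 0.24, 0.22 and 0.22 with edgeR adjusted p from 0.292 to 0.498. These genes were chosen for that separation after their values were seen.

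Length also ordered the difference between the DeltaSP clones, which share a genotype, and short genes of other families were lower in KO too. Between the DeltaSP clones, 81 of 83 genes were higher in DeltaSP 2 than in DeltaSP 1, with a median difference of 0.66 in log2 CPM and a rho of -0.83 with coding length. Between the KO clones, the KO 2 minus KO 1 median was -0.24 and rho 0.00, and between the WT clones, WT 2 minus WT 1 gave -0.40 and -0.25. Of the 83 genes, 70 were lower in KO 2 than in KO 1, and 69 were lower in WT 2 than in WT 1. Over all tested genes, the medians of these differences were -0.003 in DeltaSP, 0.004 in KO and 0.01 in WT. Among genes of other families, the 1414 whose transcripts were among the shortest 10%, up to 1079 bases, had a median log2 fold change of -0.42 in KO against WT, and the 65 ribosomal protein genes of that length had -1.16. Between clones of 1 genotype, clone 2 minus clone 1, those 1414 genes had medians of -0.18 in KO, 0.17 in DeltaSP and -0.29 in WT. In each of the 9 groups of longer transcripts, each again 10% of the genes, the median of genes outside the family lay between -0.08 and 0.09. When the trend with transcript length in each library was taken out, 10 ribosomal protein genes were lower, where 1007 of all genes passed. Rplp1, Rplp2, Rpl31, Rpl37a and Rps25 were among the 10, the median was -0.29, and rho was 0.61. Length in that fit was that of 1 annotated transcript per gene. It was 1049 bases in Rpl31, with 375 coding bases, and 345 in Rps27, with 252. A gene passing there can therefore still follow coding length. The part of transcript length or library preparation in the difference between KO and WT was not tested.

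**Figure D3:**
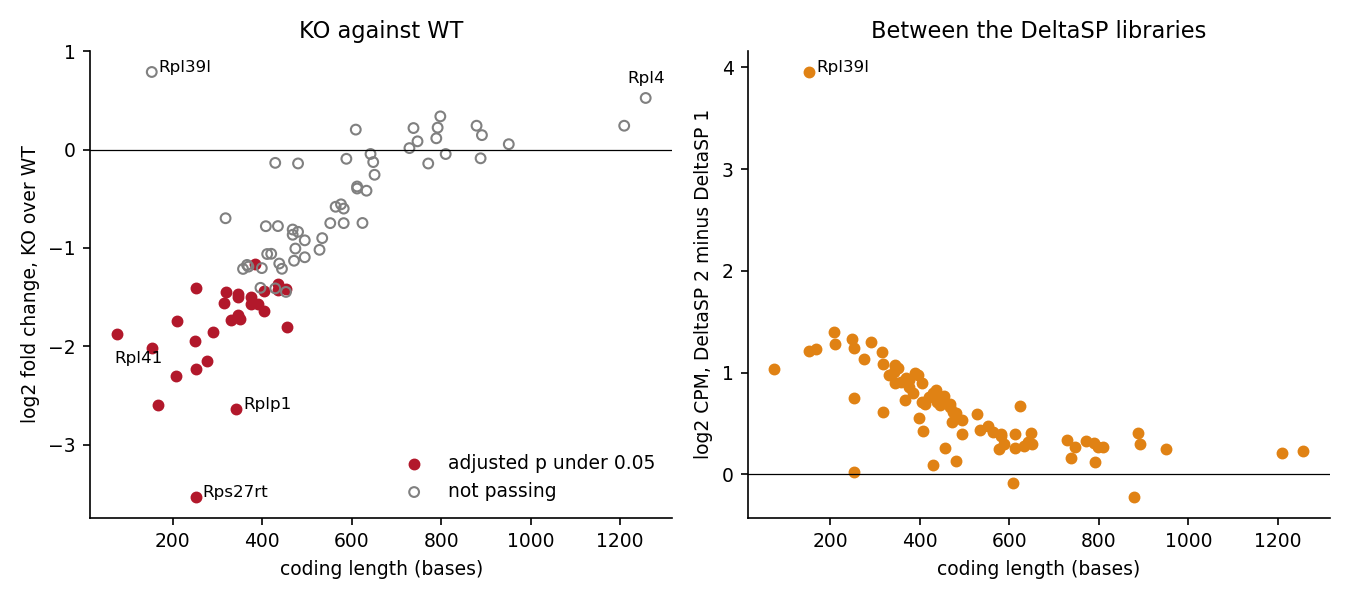
Log2 fold change of KO over WT (left) and difference in log2 CPM between DeltaSP 2 and DeltaSP 1 (right) against coding length in bases, 1 point per gene (83 genes); filled points on the left passed the edgeR test at an adjusted p under 0.05. The fold change lies lowest in short genes (median -1.63 in the shortest 28) and near 0 in long ones (-0.07), and the DeltaSP libraries differ most in short genes too.

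DeltaSP against WT gave 0 of 83 genes past the edgeR threshold, where 0.356% of all genes passed. Unadjusted, 9 were lower and 0 higher at p under 0.05, and DESeq2 called 6 lower, the genes named next. The median was -0.29, against -0.01 over all genes (-0.02 without DeltaSP 1 and -0.68 without DeltaSP 2), and in 24 genes both DeltaSP libraries lay below both WT libraries, with 4 the other way (Rpl4, Rpl7a, Rpl13a and Rps2). Of all tested genes, 23.1% and 24.9% were separated in those directions. The 6 with the smallest p were Rps27rt, Rps27, Rps29, Rpl37a, Rpl39 and Rplp1, at log2 fold changes of -2.27, -1.17, -1.19, -1.12, -1.08 and -1.19 and edgeR adjusted p of 0.146 to 0.221, none passing. By coding length the medians were -0.71, -0.37 and 0.05 in the short, middle and long genes, and 2 genes passed without WT 2, Rps27rt and Rps18, where 7.13% of all genes passed, a larger share than that of the ribosomal protein genes. The median was -0.05 without WT 1 and -0.48 without WT 2.

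KO against DeltaSP likewise gave 0 of 83 genes past the threshold, where 0.00671% of all genes passed, 1 gene. The median was -0.72 (-1.01 without DeltaSP 1 and -0.28 without DeltaSP 2), the smallest edgeR adjusted p was 0.844, and 36 genes were lower and 0 higher at an unadjusted p under 0.05. DESeq2 called 3 lower, Rplp1, Rpl38 and Rps29. Both KO libraries lay below both DeltaSP libraries for 61 genes and above for 2 (Rps3a1 and Rpl7l1), where 21.1% and 20.8% of all tested genes were separated in those directions. KO against WT and DeltaSP against WT share the WT libraries, so their values were set side by side and not correlated.

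Progenitor-like and neuron-like cells both showed the lower ribosomal protein share in KO. The cells were clustered without these genes and grouped by markers. The progenitor-like clusters were led by genes such as Sfrp2, Fabp7, Hes5, Shh and Foxa2, and the neuron-like clusters by genes such as Mnx1, Lhx4, Nefl and Slc32a1. In neuron-like cells the 85 genes took 8.63% and 7.74% of UMIs in KO, 9.29% and 12.9% in DeltaSP and 13.6% and 11.8% in WT. In progenitor-like cells they took 13.8% and 12.1% in KO, 15.1% and 19.8% in DeltaSP and 22.9% and 19.5% in WT. KO lay below WT without overlap in both classes. Neuron-like cells made up 29.1% and 26.8% of kept cells in KO, 38.2% and 28.9% in DeltaSP and 42.4% and 44.4% in WT, so the KO libraries held a smaller part of their cells in this class than the WT libraries. Different clusters held these classes in WT 1: cluster 3 drew 990 of its 1185 cells from it and cluster 7 drew 883 of 1014. Stress and immediate early genes (Jun, Junb) were among the leading genes of neuron-like cluster 8.

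In neuron-like cells, 32 of 82 genes were lower in KO than in WT and 0 were higher by edgeR (1 at an unadjusted p under 0.05, Rpl4), with 5.34% of all genes passing in either direction, 3.64% as lower and 1.71% as higher. Their median was -1.06, and the 32 ran from -3.63 to -1.12. In progenitor-like cells 13 of 82 were lower and 0 higher by edgeR (again Rpl4 alone unadjusted), where 1.83% of all genes passed, 1.69% as lower and 0.143% as higher. Here the median was -1.19, and the 13 ran from -3.76 to -1.67. With the trend in transcript length removed, 0 passed in progenitor-like cells (median -0.37), where 4 of all genes passed. In neuron-like cells 12 passed in that fit (median -0.38), where 553 of all genes passed. All 13 were among the 32 of neuron-like cells and the 29 of all cells, and 28 genes were shared by the lists of neuron-like cells and all cells. Rps29 was at -2.63 ± 0.38 in neuron-like and -2.75 ± 0.38 in progenitor-like cells, and Rplp1 at -2.71 ± 0.38 and -2.76 ± 0.44. Without KO 1 or without KO 2 the count was 0 in both classes; without WT 1 it was 16 in neuron-like and 6 in progenitor-like cells, and without WT 2 it was 49 and 50. Over all genes, 549 and 187 passed without WT 1 and 2449 and 2149 without WT 2, against 695 in neuron-like and 230 in progenitor-like cells with all libraries. With DeltaSP 1 or DeltaSP 2 left out, the median of KO against WT in progenitor-like cells was -1.19. The test of the difference between the classes passed for 0 of 82 genes, where 0.00733% of all genes passed, and 4 genes had an unadjusted p under 0.05 (Rpl22, Rpl36a, Rps4x and Rpl23a, chosen after their values were seen), with a log2 fold change of KO over WT that was higher in neuron-like cells by 0.17 to 0.28. Within the classes, DeltaSP against WT passed for 0 genes by edgeR, with backgrounds of 0.0769% in neuron-like and 0.00796% in progenitor-like cells, and 13 and 21 genes were lower at an unadjusted p under 0.05.

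Across the 15 clusters with cells of every library, both KO libraries had a lower ribosomal protein share than both WT libraries in 15, and DeltaSP 2 lay above DeltaSP 1 in 15. Both KO libraries lay below both DeltaSP libraries in 14 of them, and both DeltaSP libraries below both WT libraries in 4. In 7 of these 15 clusters at least 1 library had fewer than 20 cells, down to 2 cells of KO 1 in cluster 9. In the other 8, a minimum chosen after seeing the data, both KO libraries lay below both WT libraries in 8 and below both DeltaSP libraries in 7. DeltaSP 2 lay above DeltaSP 1 in 8 of them, and both DeltaSP libraries below both WT libraries in 2. Within a library the share ran from 6.84% to 16.9% over the clusters of KO 1 and from 6.26% to 13.8% in KO 2. The range was 7.13% to 18.2% in DeltaSP 1, 10.3% to 22.4% in DeltaSP 2, 10.4% to 23.3% in WT 1 and 9.94% to 20.7% in WT 2.

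**Figure D4:**
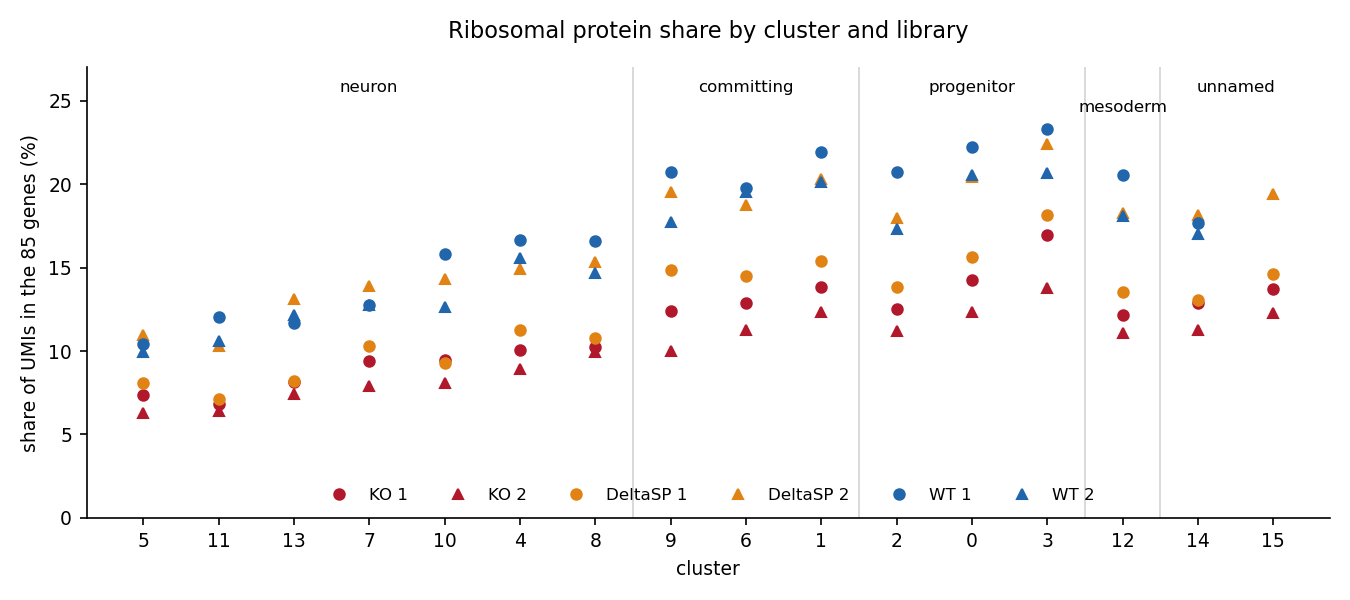
Share of UMIs in the 85 genes (percent, y axis) for each cluster (x axis, grouped by class) and each library; circles are clone 1 and triangles clone 2, and cluster 15 has no WT cells. In each of the 15 clusters with cells of every library, both KO points lie below both WT points, and DeltaSP 2 lies above DeltaSP 1. In 7 of them at least 1 library has fewer than 20 cells.

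Neuron-like cells had lower levels of every tested ribosomal protein gene than progenitor-like cells. All 82 of 82 passed as lower (edgeR quasi-likelihood test with the library as block), where 82% of all genes passed in either direction, 41.2% as lower and 40.8% as higher. The median log2 fold change was -0.76, against 0.00 over all genes, and each of the 82 was lower in neuron-like cells in every library. The fold changes spanned -1.35 to -0.40, so on the linear scale levels were 1.32 to 2.56 times lower. Spearman's rho of these fold changes with coding length was 0.24, as a description over 82 genes that share the 6 libraries. All 82 passed under each alternative run. The clusters were made without these genes.

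**Figure D5:**
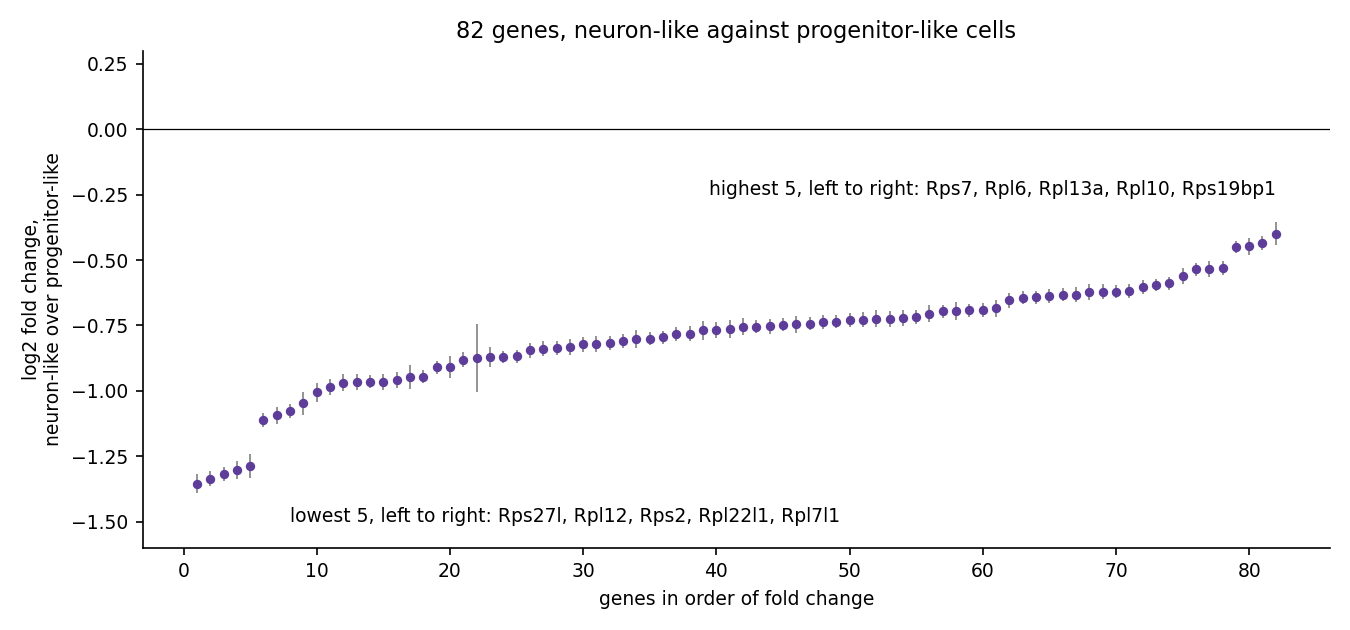
Log2 fold change of neuron-like over progenitor-like cells (y axis) for 82 ribosomal protein genes in order of fold change (x axis), with the SE of the fit over 6 libraries as bars. Each point lies below 0, between -1.35 (Rps27l) and -0.40 (Rps19bp1).

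Genes with the lowest fold changes in neuron-like cells were Rps27l, Rpl12, Rps2, Rpl22l1 and Rpl7l1, of which Rps27l, Rpl22l1 and Rpl7l1 are paralogs of another member. Rps27l ranged from 137 to 519 CPM with a median of 277 in neuron-like cells and from 337 to 1465 with a median of 671 in progenitor-like cells (log2 fold change -1.35 ± 0.04, edgeR adjusted p = 2.07e-11). Rpl12, at the base of the stalk, ranged from 372 to 1154 CPM with a median of 604 in neuron-like cells and from 907 to 3027 with a median of 1562 in progenitor-like cells (-1.34 ± 0.03, edgeR adjusted p = 5.45e-12). The ranges of both genes overlapped between the classes, with WT 1 the highest library in each class, while each library on its own was lower in neuron-like cells. Rps2, near the entry of the messenger RNA channel, ranged from 895 to 1359 CPM in neuron-like and from 2258 to 3347 in progenitor-like cells, without overlap (-1.32 ± 0.03, edgeR adjusted p = 3.98e-12). Rpl7l1, at a lower level, ranged from 60.3 to 79.4 CPM in neuron-like and from 153 to 179.7 in progenitor-like cells, also without overlap (-1.29 ± 0.05, edgeR adjusted p = 1.25e-10). Rpl22l1 had medians of 316 CPM in neuron-like and 733 in progenitor-like cells (-1.30 ± 0.03, edgeR adjusted p = 1.60e-11).

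The highest fold changes, still below 0, were those of Rps19bp1, Rpl10, Rpl13a, Rpl6 and Rps7. Rps19bp1 is not a ribosomal protein, and it had medians of 88.5 CPM in neuron-like and 113 in progenitor-like cells (-0.40 ± 0.04, edgeR adjusted p = 3.54e-06). Rpl10, a late-joining protein of the large subunit, had medians of 1216 CPM in neuron-like and 1663 in progenitor-like cells (-0.44 ± 0.03, edgeR adjusted p = 1.04e-08). Rpl13a stood at -0.45, Rpl6 at -0.45 and Rps7 at -0.53, so the spread between the members was about 1 on the log2 scale. By subunit the medians were -0.78 over 32 small-subunit genes and -0.75 over 49 large-subunit genes.

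Paralog pairs were set side by side. Rpl36a fell in KO against WT (log2 fold change -1.45 ± 0.33, edgeR adjusted p = 0.0463), with 511 and 516 CPM in KO, 553 and 1174 in DeltaSP and 1437 and 1373 in WT. Its paralog Rpl36al, with 321 and 273 CPM in KO, 343 and 524 in DeltaSP and 337 and 627 in WT, had -0.70 ± 0.32 (edgeR adjusted p = 0.197). KO and WT did not overlap in either gene, though Rpl36al had 1 WT library near KO. Rpl22 passed narrowly, as given above with its change of sign, and Rpl22l1 did not, at -1.17 ± 0.29 (edgeR adjusted p = 0.0553), with 389 and 320.0 CPM in KO, 399 and 660.2 in DeltaSP and 949 and 651 in WT. These 2 fold changes were nearly equal on either side of the threshold. The difference between paralogs was not tested. Rpl7 had 1634 and 1710.3 CPM in KO, 1527 and 1847 in DeltaSP and 2071 and 1383 in WT, with overlap (-0.05 ± 0.25, edgeR adjusted p = 0.916). Rpl10 stood at -0.05 ± 0.23 (edgeR adjusted p = 0.913). Rps4x, at 0.11 ± 0.23 (edgeR adjusted p = 0.775), and Rps27a, at -0.81 ± 0.34 (edgeR adjusted p = 0.165), are not paired with another gene here. Rps27a is made as a fusion with ubiquitin. None of these genes passed. The signs of Rpl7, Rpl10 and Rps4x changed when 1 library was left out. Between cell classes, Rpl36a had -1.05 and Rpl36al -0.53, Rpl22 -0.95 and Rpl22l1 -1.30, Rps27 -0.69 and Rps27l -1.35, and Rpl7 -0.60 and Rpl7l1 -1.29, all passing as lower in neuron-like cells. The tissue-restricted paralogs were near the limit of detection: Rpl39l had 37 and 6 UMIs in KO, 2 and 79 in DeltaSP and 4 and 13 in WT, and Rpl3l and Rpl10l had at most 10 in any library.

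Among ribosomal proteins outside the symbol rule, Fau was lower in KO. Fau, which encodes the small-subunit protein Rps30 fused to a ubiquitin-like part, had 959 and 762 CPM in KO, 1381 and 2433 in DeltaSP and 3615 and 2699.6 in WT. KO lay below DeltaSP and DeltaSP below WT (log2 fold change of KO over WT -1.88 ± 0.33, edgeR adjusted p = 0.0307). Rpsa had 0.16 ± 0.23 (edgeR adjusted p = 0.692) and Rack1 0.60 ± 0.26 (edgeR adjusted p = 0.170), neither passing. Fau, Rpsa and Rack1 were each lower in neuron-like than in progenitor-like cells, at -0.37 in Fau, -1.02 in Rpsa and -0.73 in Rack1.

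Other genes of translation and ribosome production were read against the 7.52% of all genes that passed between KO and WT. Called in either direction were 2.56% of the translation factors, 8.62% of the biogenesis genes, 11.5% of the mitochondrial ribosomal protein genes and 15.4% of the mitochondrially encoded genes. Of 39 translation factors 1 was lower, Eif3j1 (log2 fold change -1.26 ± 0.26, edgeR adjusted p = 0.0382), and 0 were higher, with a median of 0.06. Of 58 ribosome biogenesis genes 4 were higher and 1 was lower, with a median of 0.24. Ftsj3 (0.90 ± 0.13, edgeR adjusted p = 0.0262), Mybbp1a (0.89 ± 0.14, edgeR adjusted p = 0.0262) and Pes1 (0.97 ± 0.18, edgeR adjusted p = 0.0328), all of the nucleolus, were higher in KO, as was Heatr1 (0.61 ± 0.14, edgeR adjusted p = 0.0456). In DeltaSP against WT, Ftsj3 stood at 0.81, Mybbp1a at 0.99 and Pes1 at 0.97, and of these Mybbp1a alone passed (edgeR adjusted p = 0.0470). KO against DeltaSP gave 0.09, -0.10 and 0.00 in the same order. Nop10, a small protein of the pseudouridylation complex, was lower (-1.32 ± 0.24, edgeR adjusted p = 0.0320). Of 78 mitochondrial ribosomal protein genes 1 was higher, Mrpl10 (0.71 ± 0.15, edgeR adjusted p = 0.0399), and 8 were lower, with Mrpl52 (-1.71), Mrps18c (-1.51) and Mrps21 (-1.49) having the smallest p among the lower ones. Of the 13 mitochondrially encoded genes, mt-Nd3 (-3.05, edgeR adjusted p = 0.0139) and mt-Nd4l (-1.15, edgeR adjusted p = 0.0478) were lower. The gene mt-Nd3 was also lower in DeltaSP against WT (-1.86, edgeR adjusted p = 0.0472). In neuron-like against progenitor-like cells, where 41.2% of all genes were lower and 40.8% higher, 56 of 58 biogenesis genes were lower and 2, Rrn3 and Rrp1, higher (median -0.91), 29 of 39 translation factors lower and 5 higher (median -0.41; Eef1a2, Eif4a2, Eef2, Eif4g2 and Eif4e), and 66 of 78 mitochondrial ribosomal protein genes lower and 6 higher (median -0.43). Of the 13 mitochondrially encoded genes, 2 were lower and 5 higher there. The neuronal elongation factor Eef1a2 stood at 5.01 ± 0.21, named with the others of these counts after their values were seen.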

How the data were processed

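Deposited values were raw UMI counts per gene and barcode, for which the authors ran Cell Ranger 4.0 (genome mm10, Ensembl release 93), per the labels and series text; these name more than 1 version of the 10x 3' kit. A barcode was kept with 1000 genes or more and no more than 10% of UMIs from mitochondrial genes, which held for 16225 of 24215. No doublets were removed. An alternative left out the 5% of cells with the most UMIs. Cells were clustered in scanpy 1.11.5 (Python 3.11.15) without the ribosomal protein genes, from 2000 variable genes, 30 components and 15 neighbours, with leidenalg 0.10.2 at resolution 0.6. A class name needed at least 3 markers with raised expression, a rule set after the clusters were seen. Barcodes shared between libraries were kept.

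UMIs were summed per library and tested in edgeR 4.0.16 (R 4.3.3) over all genes passing filterByExpr, with TMM, the quasi-likelihood test, all 6 libraries in 1 fit and Benjamini-Hochberg adjustment at 0.05. Neuron-like and progenitor-like sums were compared with the library as block. The SE was taken from the F statistic. DESeq2 1.42.0, without independent filtering, was an alternative. Lengths and coding sequences came from GENCODE M21 (GRCm38), which matched 30532 of 31053 gene names, and start windows from RefSeq (GRCm38.p6). In simulated data of 14685 genes, with the library sizes of all kept cells, 42.4% of genes changed 2-fold between KO and WT were found. Of those changed 4-fold, 84% were found, with 8 false calls. Genes were drawn independently, without differences between libraries that many genes share, so these rates do not give the error in the real data.

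The ribosomal protein genes, pathway lists and marker lists were chosen with earlier results of these data known. Named genes were the 10 lowest and 5 highest fold changes among those passing in KO against WT, for DeltaSP against WT those with the smallest p, the 5 lowest and 5 highest in neuron-like against progenitor-like cells, paralog pairs, and up to 4 genes per pathway list by p. Others were named after their values were seen. Counting intervals are not given, since the spread between clones exceeds counting error. Some items are not reported here.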

Additional observations from a re-analysis of the deposited data

How the results depend on the processing

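The count of genes lower in KO than in WT over all cells, 29, came to 55 with no filter on low counts (3390 of all genes called, against 1121), 53 with DESeq2 (which also gave 1 higher, 2382 of all genes), 10 with the length trend removed, and 0 to 46 with 1 library left out. In progenitor-like cells the count of 13 came to 0 with the length trend removed and 0 to 50 with 1 library left out. In neuron-like cells the count of 32 came to 12 and 0 to 49. DeltaSP against WT gave 17 with no filter (1326 of all genes) and 6 with DESeq2 (604) in place of 0, and 0 to 2 with 1 library left out, 0 to 3 in progenitor-like and 0 to 2 in neuron-like cells. KO against DeltaSP gave 39 with no filter (422 of all genes) and 3 with DESeq2 (51) in place of 0. The test of the difference between classes gave 0 to 1 higher with 1 library left out. The cause of these shifts was not tested. The 82 of neuron-like against progenitor-like cells passed in each alternative run.

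With the replicate number as a block, the count was 17 over all cells, 8 in progenitor-like and 23 in neuron-like cells. Of all genes, 1014, 217 and 593 passed in the same fits. The numbers were not treated as pairs: same-number libraries correlated at 0.03 (KO and DeltaSP), 0.14 (KO and WT) and -0.02 (DeltaSP and WT) in their deviations. Signs changed with the length trend removed in Rpl22 (0.031), Rpl7 (0.0095), Rpl10 (0.43) and Rpl36al (0.28). With 1 library left out, the fold change ran from -0.30 to 0.29 in Rpl7, from -0.25 to 0.15 in Rpl10 and from -0.055 to 0.33 in Rps4x. A genotype left with 1 library is assumed to vary like the others. The summed share moved by less than 1 SD in each genotype under the alternatives run. In simulated data with independently drawn genes, 42.4% of 2-fold changes were found over all cells, 52.6% in progenitor-like and 51% in neuron-like cells. Thinning library totals to the smallest gave 32 genes, where 1165 of all genes passed. Depth per cell, lowest in WT 1, was not matched.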
